A study of Danio rerio with 30 samples.

Results

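The SWI/SNF chromatin remodeler subunits were followed here as 10 genes, smarca2, smarca4a, smarca5, smarcb1a, smarcb1b, smarcc1a, smarcd1, smarce1, arid1ab and arid2, chosen by gene name out of 35117 genes in the expression tables, with each name found in a single row. RNA was sequenced from pools of whole zebrafish embryos, 25 to a set, kept at 28 degrees Celsius, in 30 libraries of 1 per condition and time. In the first condition, embryos had been injected at the single-cell stage with alpha-amanitin (200 ng/ul), a toxin that blocks RNA polymerase II, and poly(A) RNA was captured at 12 times from 2 to 7.5 hours post-fertilization (hpf). In the other conditions wild-type embryos were sampled at 9 hourly times from 0 to 8 hpf, once after poly(A) capture and once after ribosomal RNA depletion with Ribo-Zero, which keeps RNAs with short tails. Levels are in TPM, a share of all transcripts of a library corrected for transcript length, so that every level is relative to the other RNAs and genes may be compared with each other.

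SWI/SNF complexes, called BAF and PBAF in vertebrates, use ATP to slide or evict nucleosomes and so open chromatin for transcription. A complex holds 1 of a pair of alternative ATPases, SMARCA2 (BRM) or SMARCA4 (BRG1), a core with SMARCB1, SMARCC and SMARCD proteins, the HMG-box protein SMARCE1, and a targeting subunit, ARID1 in BAF or ARID2 in PBAF. The egg supplies the early embryo with maternal mRNAs, and during the maternal-to-zygotic transition many of these are cleared while the embryo's own genome is switched on. One of the 10 genes goes against the group's name: smarca5 encodes the ATPase of ISWI remodelers (SNF2H), not a SWI/SNF subunit, and it is kept here as a member by name only.

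All 10 members were maternal: each was among the 10874 genes whose TPM averaged at least 5 over the first 2 Ribo-Zero time points. A further row named SMARCA4 (ENSDARG00000104339) was listed at 0.09 to 1.48 TPM, at most 1.11% of the smarca4a level in the same library, and reads may have been divided between those rows.

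The injected embryos lacked the transcripts of the early zygotic genes. Summed over 6 genes switched on in the embryo (ta, vox, aplnrb, tbx16, sox32 and krt4), the level at 4 to 7 hpf was 0.0 to 1.22 TPM in alpha-amanitin embryos and 103.82 to 2921.63 TPM in wild-type poly(A) libraries. The number of genes at 1 TPM or more was 12703 to 14379 in the alpha-amanitin libraries, 11919 to 16194 in wild-type poly(A) and 14022 to 15024 in wild-type Ribo-Zero. The alpha-amanitin library at 3 hpf stood out in some respects. Its Spearman correlation with the 6 hpf library across 13976 genes (0.913) was above those at 3.5 hpf (0.884) and 4 hpf (0.906). Its correlation with the 2 hpf library (0.965) was in time order, between those at 2.5 hpf (0.984) and 3.5 hpf (0.955). Mitochondrial transcripts made up 8.6% of its TPM against 11% to 14.1% in the libraries at 2, 2.5, 3.5 and 4 hpf. From 4.5 to 7.5 hpf that share was 7.67% to 9.49%, so in this respect the 3 hpf library was like the later ones. The slope and ratio tests that include the 3 hpf library were also run without it. The ranges, the medians and the comparison at 2 and 3 hpf include it throughout. Read totals are not known from TPM, and with 1 library per time the hours of a window or the scatter about a line stand in for replicate error, so that p-values measure the spread between hours and not between clutches.

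The level of smarca2, the BRM ATPase, was higher from 4.5 hpf on than before in alpha-amanitin embryos and fell in wild-type embryos after 4 hpf. In the injected embryos it was 22.18 to 37.61 TPM at 2 to 4 hpf and 48.35 to 69.76 TPM at 4.5 to 7.5 hpf. In alpha-amanitin embryos smarca2 had a lowest value of 22.2 TPM at 2 hpf, a median of 49.2 TPM and a highest value of 69.8 TPM at 6.5 hpf. In wild-type Ribo-Zero libraries it was 41.5, 36.6, 38.0, 36.8 and 36.7 TPM at 0, 1, 2, 3 and 4 hpf, then 25.7, 7.65, 1.79 and 1.45 TPM at 5, 6, 7 and 8 hpf. Wild-type poly(A) libraries held 12.98, 17.9, 36.2, 38.2 and 39.7 TPM over the first 5 times, then 17.2, 1.64, 0.37 and 0.40 TPM. The Ribo-Zero level was thus flat until 4 hpf, and the level at 8 hpf was 25.3-fold lower than at 4 hpf in Ribo-Zero and 99.2-fold lower in poly(A) RNA. At 7 hpf the level was 62.95 TPM in alpha-amanitin embryos and 0.37 TPM in wild-type poly(A) libraries, which is 170.1-fold higher in the injected embryos. These folds set 1 library against 1 library, and the wild-type poly(A) levels at 7 and 8 hpf were near the floor, where folds are imprecise. At 7 hpf the median of the 10874 maternal genes was also 1.12 log2 higher in the injected embryos.

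**Figure D1:**
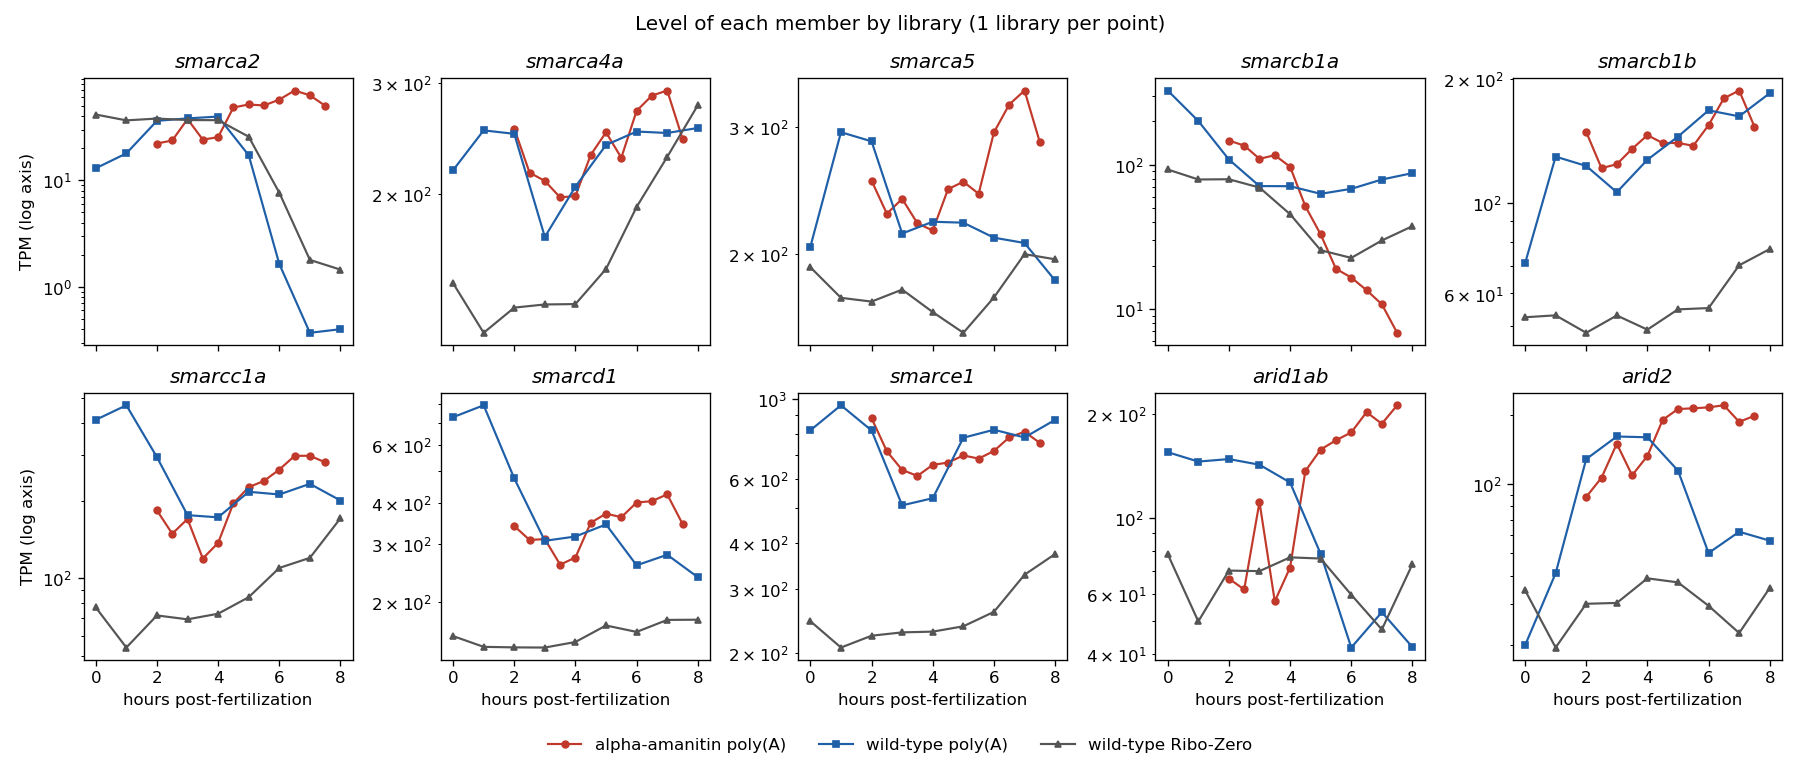
TPM of each of the 10 members on a log axis against hours post-fertilization, with 1 point per library, for alpha-amanitin poly(A) (circles), wild-type poly(A) (squares) and wild-type Ribo-Zero (triangles). smarca2 ends at 50.15 TPM in alpha-amanitin embryos and at 0.40 and 1.45 TPM in the wild-type profiles, while smarcb1a ends at 6.84 TPM in alpha-amanitin embryos, against 87.67 and 37.57 TPM in the wild-type profiles.

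The paralog smarca4a, the BRG1 ATPase, did not follow smarca2. In alpha-amanitin embryos smarca4a lay between 197 TPM at 3.5 hpf and 292 TPM at 7 hpf, with a median of 238 TPM. Wild-type poly(A) libraries held between 170.9 TPM at 3 hpf and 254 TPM at 8 hpf, with a median of 249.0 TPM. Wild-type Ribo-Zero libraries held 144, 120.4, 132, 134 and 134 TPM at 0 to 4 hpf and 152, 191, 229 and 276 TPM at 5 to 8 hpf. All 4 late Ribo-Zero values lay above all early ones, and the 3 profiles overlapped. In every library smarca4a was more abundant than smarca2.

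Within a library the ratio of smarca2 to smarca4a does not depend on scaling. In alpha-amanitin embryos the ratio stood at 0.0874, 0.179 and 0.128 at 2, 3 and 4 hpf, and between 0.205 and 0.244 from 4.5 to 7.5 hpf. Wild-type Ribo-Zero libraries had ratios of 0.288, 0.304, 0.288, 0.276 and 0.275 at 0 to 4 hpf and 0.169, 0.0401, 0.00782 and 0.00525 at 5 to 8 hpf. Wild-type poly(A) libraries had ratios of 0.0595, 0.071, 0.145, 0.223 and 0.193 at 0 to 4 hpf and 0.072, 0.00653, 0.00148 and 0.00157 at 5 to 8 hpf. From 5 hpf on every alpha-amanitin ratio lay above every wild-type ratio of either profile.

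On the log2 scale the late ratio was higher by 0.70 in alpha-amanitin embryos, with −2.20 ± 0.09 at 5 to 7.5 hpf against −2.90 ± 0.46 at 2 to 4.5 hpf (SD, n = 6 each, two-sided exact permutation p = 0.00649). Without the 3 hpf library that difference was 0.78, again with an exact permutation p of 0.00649. The highest early ratios were those at 3 and 4.5 hpf (−2.48 and −2.25), and the latter lay within the late range of −2.28 to −2.04. Those were also the early libraries with a low mitochondrial share. Whether the difference follows time or this grouping of libraries was not tested. In wild-type Ribo-Zero libraries the ratio fell by 3.61, with −5.40 ± 2.26 at 5 to 8 hpf against −1.79 ± 0.06 at 0 to 3 hpf (SD, n = 4 each, exact permutation p = 0.0286, the smallest that 4 against 4 allows). In wild-type poly(A) libraries it was −7.25 ± 2.47 at 5 to 8 hpf against −3.20 ± 0.89 at 0 to 3 hpf, a difference of −4.05 that missed the threshold (exact permutation p = 0.0857), because the ratio at 5 hpf lay inside the early range. Without 5 hpf the late and early ratios no longer overlapped. The difference was then −5.21, with the smallest p that the remaining hours allow (exact permutation p = 0.0286). Without any other single hour the test still missed the threshold.

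**Figure D2:**
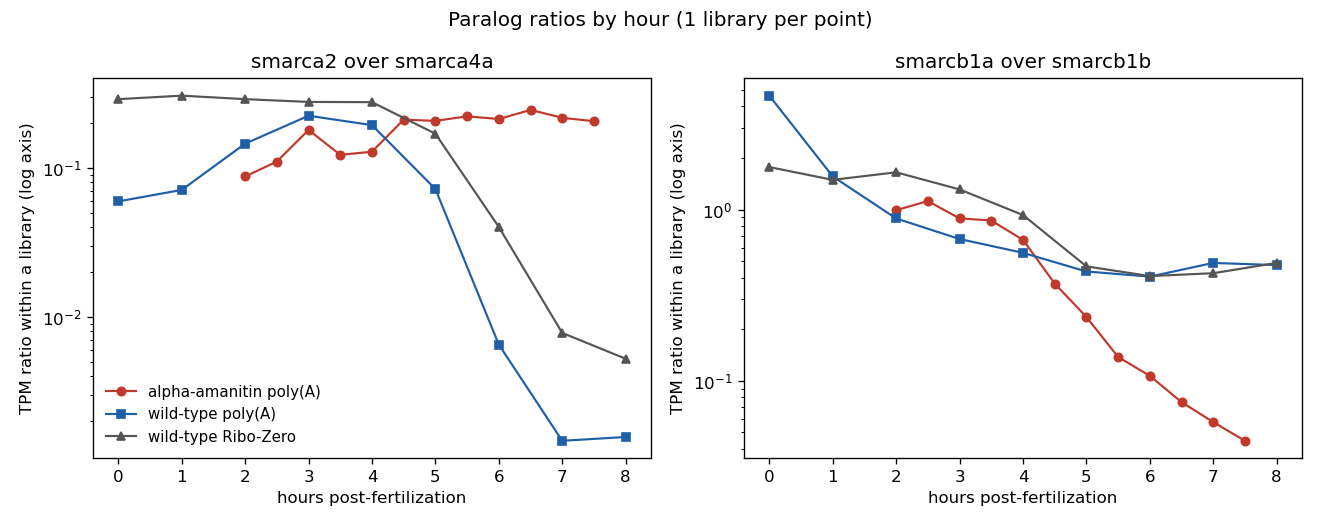
TPM ratio of smarca2 to smarca4a (left) and of smarcb1a to smarcb1b (right) within each library, on log axes, against hours post-fertilization, with 1 point per library. From 5 hpf on the smarca2 ratio stays between 0.205 and 0.244 in alpha-amanitin embryos and ends at 0.00157 and 0.00525 in the wild-type profiles, while the smarcb1a ratio ends at 0.0447 in alpha-amanitin embryos and at 0.474 and 0.488 in the wild-type profiles.

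Of the pair of SMARCB1 genes, which encode the core subunit also called SNF5 or INI1, smarcb1a was lower in alpha-amanitin embryos than in wild-type poly(A) libraries from 5 hpf on. In alpha-amanitin embryos smarcb1a was 147, 136, 110.2, 117, 97.1 and 51.6 TPM from 2 to 4.5 hpf and 32.9, 19.0, 16.5, 13.5, 10.8 and 6.84 TPM from 5 to 7.5 hpf, 21.6-fold lower at the last time than at the first. Wild-type poly(A) libraries held 328, 202, 109, 71.3 and 71.1 TPM at 0 to 4 hpf and 63.0, 68.2, 79.1 and 87.7 TPM at 5 to 8 hpf. Wild-type Ribo-Zero libraries held 92.9, 79.2, 79.5, 69.6 and 45.5 TPM at 0 to 4 hpf and 25.6, 22.6, 29.9 and 37.6 TPM at 5 to 8 hpf. Both wild-type profiles thus had their lowest value at 5 or 6 hpf with higher values after it, and the injected embryos had theirs at the last time.

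The second copy, smarcb1b, stayed between 121 and 188 TPM in alpha-amanitin embryos (median 143 TPM), between 71.0 and 185 TPM in wild-type poly(A) libraries (median 129 TPM) and between 48.1 and 77.0 TPM in wild-type Ribo-Zero libraries (median 53.1 TPM). The ratio of smarcb1a to smarcb1b was 0.992 at 2 hpf and 0.0447 at 7.5 hpf in alpha-amanitin embryos. At 0 and 8 hpf it was 4.62 and 0.474 in wild-type poly(A) libraries and 1.77 and 0.488 in wild-type Ribo-Zero libraries, so that the ratio was lower at the last time in all 3 profiles.

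The remaining members were abundant throughout. In alpha-amanitin embryos smarce1 was the most abundant member, at 613 to 883 TPM (median 707 TPM), against 509 to 958 TPM in wild-type poly(A) and 207 to 374 TPM in wild-type Ribo-Zero libraries. For smarcd1 the range was 259 to 424 TPM in alpha-amanitin embryos (median 346 TPM), against 237 to 790.4 TPM in wild-type poly(A) and 145 to 176 TPM in wild-type Ribo-Zero libraries. For the ISWI ATPase gene smarca5 it was 216 to 337 TPM in alpha-amanitin embryos (median 249 TPM), against 184 to 295 TPM in wild-type poly(A) and 156 to 200.0 TPM in wild-type Ribo-Zero libraries. For all 3 genes the alpha-amanitin range overlapped that of wild-type poly(A) RNA. The range of smarcc1a was 119 to 299 TPM in alpha-amanitin embryos (median 211 TPM), against 173 to 469.6 TPM in wild-type poly(A) and 53.9 to 171 TPM in wild-type Ribo-Zero libraries. The highest wild-type poly(A) values of smarcc1a and smarcd1 came at 1 hpf, earlier than any sample of injected embryos.

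Whether members changed with time once transcription was blocked was tested by the slope of log2(TPM + 0.1) on time in the 12 alpha-amanitin libraries (limma, Benjamini-Hochberg adjustment over all 13977 genes tested, threshold 0.05). Injected embryos had only poly(A) libraries, so whether a slope follows RNA amount or poly(A) capture was not tested. In wild-type embryos the median poly(A) minus Ribo-Zero difference of maternal genes was −0.01 log2 at 2 hpf and 0.39 at 7 hpf. Of the 10 members 7 rose and 1 fell, where 23.7% of all genes tested rose and 37.5% fell (61.2% in either direction). With scaling over the maternal genes 8 members rose and 1 fell, against 32.1% and 34.6% of all genes. The median slope was 0.085 per hour over the members and −0.049 over all genes. The largest slopes were those of arid1ab (0.36 ± 0.05 SE, adjusted p = 6.75e-05), smarca2 (0.29 ± 0.05 SE, adjusted p = 0.000281) and arid2 (0.22 ± 0.04 SE, adjusted p = 0.000574). The slope of smarcc1a, one of the scaffold subunits, was 0.21 ± 0.04 (SE, adjusted p = 0.000722). Those of smarca5, smarcd1 and smarcb1b were 0.09, 0.08 and 0.07, and neither smarca4a (0.07, adjusted p = 0.0658) nor smarce1 (0.02, adjusted p = 0.599) passed.

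The member that fell was smarcb1a, at −0.87 log2 per hour (SE 0.05, adjusted p = 1.01e-07), and 1.67% of all genes tested had a lower slope. Expressed as the time in which the relative level in poly(A) libraries falls by 1 log2 unit, this is 1.15 h (95% interval 1.02 to 1.32). Only smarcb1a passed within the libraries from 2 to 4.5 hpf alone (1.96 h, interval 1.29 to 4.05) and within those from 5 to 7.5 hpf alone (1.25 h, interval 1.0 to 1.66). Between 4 and 4.5 hpf smarca2 stepped up from 25.5 to 48.4 TPM and arid1ab from 71.5 to 136.6 TPM, and this step lies within the first stretch. Not all members stepped up, since smarcb1b was 146.0 and then 139.7 TPM and smarcb1a 97.1 and then 51.6 TPM. The mitochondrial share was lower from 4.5 hpf on and at 3 hpf, where smarca2 was 37.6 TPM and arid1ab 110.95 TPM. Whether the rises follow time or this grouping of libraries was not tested. All 7 rises lost their call within either stretch alone. From 2 to 4.5 hpf, where 9.39% of all genes tested rose and 3.5% fell, the slopes were 0.30 for smarca2, 0.28 for arid1ab and 0.35 for arid2. From 5 to 7.5 hpf, where 0.306% rose and 21.4% fell, they were 0.06 for smarca2, 0.16 for arid1ab and −0.06 for arid2. Without the 3 hpf library 5 members rose and 1 fell, where 24.0% of all genes tested rose and 35.5% fell. In that fit smarca2 had a slope of 0.31 and smarcb1a one of −0.87, and smarcb1b (adjusted p = 0.0661) and smarcd1 (adjusted p = 0.0549) no longer passed. The calls of smarcb1b and smarcd1 were also lost without 2.5, 6, 6.5 or 7 hpf. Leaving out each hour in turn, smarcb1b passed in 7 of 12 fits and smarcd1 in 6 of 12.

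The difference between treatments was tested as the slope in alpha-amanitin embryos minus the slope in wild-type embryos, over poly(A) libraries at 2 to 7 hpf, 6 against 6. No group was injected without the toxin. In every comparison of these embryos, effects of the toxin, the injection and the separate set of embryos therefore cannot be told apart. Of the members 4 had a higher slope and 1 a lower slope in alpha-amanitin embryos, where 29.4% of the 15782 genes tested were higher and 23.1% lower (52.5% in either direction). With scaling 3 members were higher and 1 lower, against 18.7% and 34.3% of all genes, and the differences were 1.39 for smarca2, 0.44 for arid1ab, 0.28 for arid2 and −0.98 for smarcb1a. The slope of smarca2 was 0.30 log2 per hour in alpha-amanitin embryos and −1.31 in wild-type embryos, a difference of 1.61 ± 0.28 (SE, limma adjusted p = 0.00103) that was above 99.9% of all genes tested. For arid1ab it was 0.30 in alpha-amanitin embryos and −0.38 in wild-type embryos, a difference of 0.69 ± 0.12 (SE, limma adjusted p = 0.00108). For arid2 it was 0.22 in alpha-amanitin embryos and −0.31 in wild-type embryos, a difference of 0.53 ± 0.13 (SE, limma adjusted p = 0.00495). For smarcb1a it was −0.82 in alpha-amanitin embryos and −0.08 in wild-type embryos, a difference of −0.74 ± 0.12 (SE, limma adjusted p = 0.000792).

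These 4 differences passed in all 11 alternatives run, with and without 3 hpf. The difference of smarcd1 (0.22, limma adjusted p = 0.0451) passed in 2 of the 11, was lost without any 1 of the 6 hours, and was −0.03 when libraries were scaled over maternal genes. For smarca4a the difference was 0.02, with a 95% interval from −0.17 to 0.20, so that a difference as large as that of smarca2 lay outside it.

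**Figure D3:**
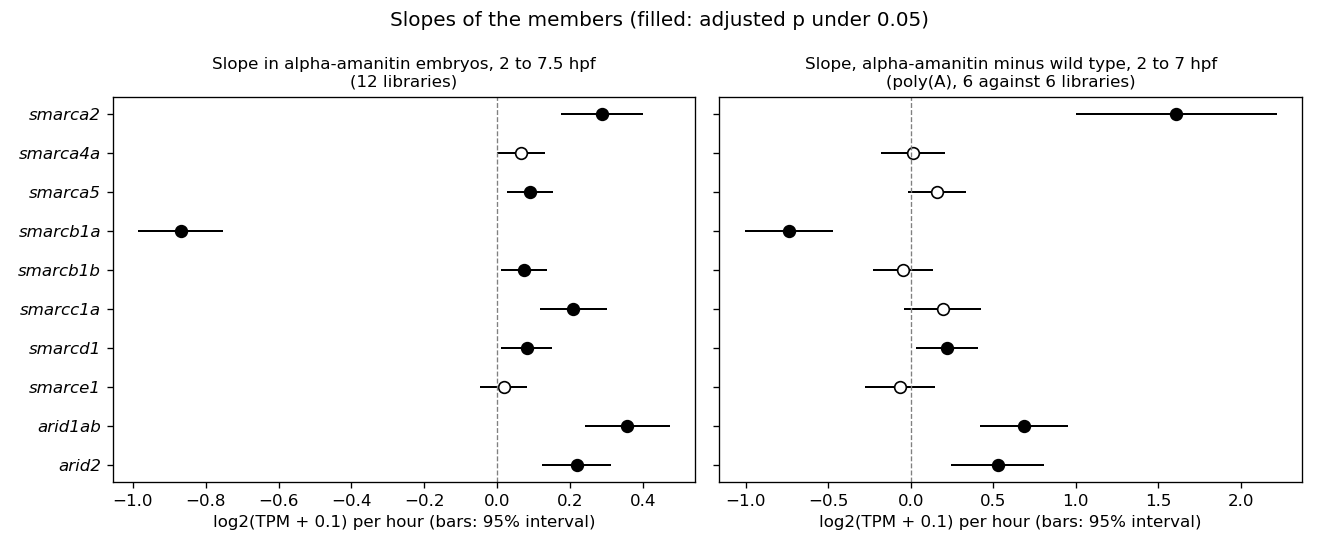
Slope of log2(TPM + 0.1) per hour for each member in alpha-amanitin embryos (left, 12 libraries) and alpha-amanitin minus wild type (right, 6 against 6 poly(A) libraries), with 95% intervals, filled where the adjusted p is under 0.05. On the right smarca2 lies farthest up at 1.61 and smarcb1a farthest down at −0.74, and the filled point of smarcd1 (0.22) turned to −0.03 with scaling over maternal genes.

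The ARID subunits, which help to direct the complexes to chromatin, had wild-type profiles that differed between poly(A) and Ribo-Zero RNA. In alpha-amanitin embryos arid1ab ranged from 57.0 TPM at 3.5 hpf to 212 TPM at 7.5 hpf, with a median of 147 TPM. Wild-type poly(A) libraries held 155, 146, 148, 143 and 127 TPM at 0 to 4 hpf and 78.4, 41.8, 53.0 and 41.9 TPM at 5 to 8 hpf. Wild-type Ribo-Zero libraries held 78.3, 49.8, 70.1, 69.8 and 76.6 TPM at 0 to 4 hpf and 76.0, 59.6, 47.2 and 73.1 TPM at 5 to 8 hpf. The late and early poly(A) values did not overlap, whereas the Ribo-Zero values did.

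For arid2, the PBAF subunit, the alpha-amanitin values ran from 87.9 TPM at 2 hpf to 219.9 TPM at 6.5 hpf, with a median of 188 TPM. In wild-type poly(A) libraries arid2 was 19.9, 41.0, 128, 161 and 159.6 TPM at 0 to 4 hpf and 114, 50.2, 62.0 and 56.8 TPM at 5 to 8 hpf, an 8.08-fold higher level at 3 hpf than at 0 hpf. Wild-type Ribo-Zero libraries held 34.6, 19.5, 30.2, 30.4 and 38.9 TPM at 0 to 4 hpf and 37.4, 29.6, 22.5 and 35.4 TPM at 5 to 8 hpf. Both profiles were thus lower at 6 and 7 hpf than at 4 hpf. The Ribo-Zero range was narrower, with 2.0-fold between its lowest and highest values against 8.08-fold in poly(A) RNA.

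At matched hours after genome activation, 4 to 7 hpf, the levels in poly(A) libraries were compared with time as a covariate, 4 against 4. Of the members 2 were higher and 1 lower in alpha-amanitin embryos, where 23.8% of the 16028 genes tested were higher and 21.8% lower (45.6% in either direction). With scaling none was higher and 1 was lower, against 10.1% and 27.3% of all genes. The mean of smarca2 was 49.3 ± 16.6 TPM in alpha-amanitin embryos and 14.7 ± 18.3 TPM in wild-type embryos (SD, n = 4 each), a log2 difference of 3.26 ± 1.06 (SE, limma adjusted p = 0.036). The difference was 1.08 for arid2 (limma adjusted p = 0.0401), −1.35 for smarcb1a (limma adjusted p = 0.0482) and 1.02 for arid1ab, which did not pass (limma adjusted p = 0.0776). The 3 calls were lost with the hour as a factor and without any of 5, 6 and 7 hpf. Hour by hour, smarca2 differed by −0.64, 1.58, 5.04 and 7.07 log2 at 4, 5, 6 and 7 hpf, and smarcb1a by 0.45, −0.93, −2.04 and −2.86.

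At 2 and 3 hpf, 2 against 2, only arid1ab was called, lower in alpha-amanitin embryos (66.4 and 110.95 TPM against 148 and 143 TPM in wild-type embryos, limma adjusted p = 0.00637), where 8.69% of the 14020 genes tested were higher and 3.67% lower (12.4% in either direction), and with scaling 1.41% and 0.956%. That fit has 1 residual degree of freedom per gene, so its p-value rests on a variance pooled over all genes tested and not on the spread of arid1ab itself. The call was lost with scaling, with no filter and without the covariate. With no filter 0.00435% of all genes tested were higher and 0.0827% lower, and without the covariate 0.0% were called in either direction. In these last settings arid1ab stayed at −0.76 log2. The log2 difference of smarca2 was −0.70 at 2 hpf and −0.02 at 3 hpf, so its level was not higher in the injected embryos at these hours.

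**Figure D4:**
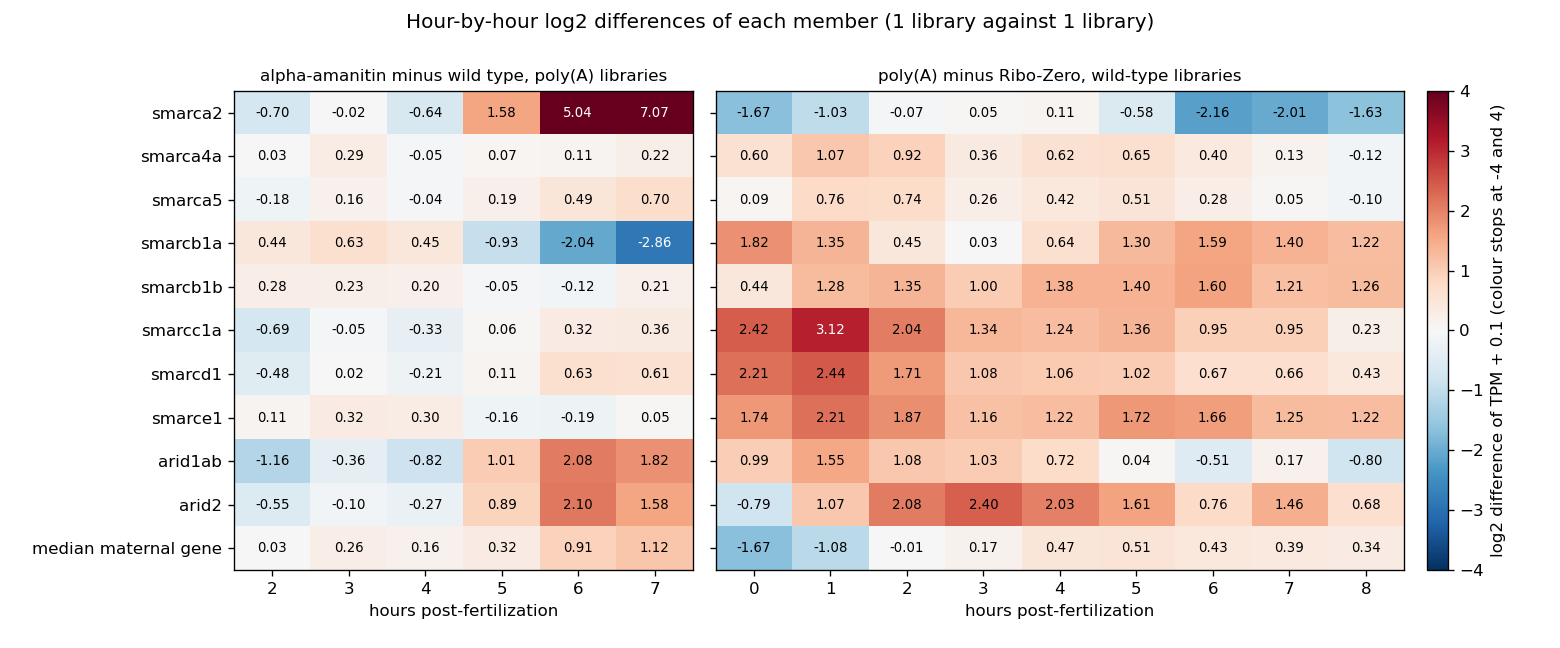
Log2 difference of TPM + 0.1 of each member by hour, alpha-amanitin minus wild type in poly(A) libraries (left) and poly(A) minus Ribo-Zero in wild-type libraries (right), each cell comparing 1 library with 1 library, with the median of 10874 maternal genes in the bottom row. The left panel shows smarca2 at 7.07 and smarcb1a at −2.86 at 7 hpf against a maternal median of 1.12, and the right panel shows smarcc1a at 3.12 at 1 hpf against a maternal median of −1.08.

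In unmanipulated development, the mean level at 5 to 8 hpf was set against that at 0 to 3 hpf. In Ribo-Zero libraries 3 members rose (smarca4a, smarcc1a and smarce1) and 2 fell (smarca2 and smarcb1a), where 22.1% of the 15769 genes tested rose and 57.2% fell (79.4% in either direction). The log2 changes were −2.96 ± 0.80 for smarca2 (SE, limma adjusted p = 0.00856), −1.49 ± 0.19 for smarcb1a (SE, limma adjusted p = 0.000205), 0.80 ± 0.22 for smarcc1a (SE, limma adjusted p = 0.0099) and 0.65 ± 0.19 for smarca4a (SE, limma adjusted p = 0.0112). smarcc1a was 84.6, 109.8, 120.2 and 171 TPM at 5 to 8 hpf and 77.2, 53.9, 71.8 and 69.4 TPM at 0 to 3 hpf, so its late and early values did not overlap. The change of smarce1, 0.39 (limma adjusted p = 0.0493), passed in 6 of 14 alternatives. The late window of 6 to 8 hpf and the fit without 5 hpf hold the same libraries. Counts out of 14, here and in poly(A) RNA, therefore include the same fit under both names. With an early window of 2 to 3 hpf smarcb1a alone passed, and the limma adjusted p was 0.0633 for smarca2, 0.0696 for smarca4a and 0.0669 for smarcc1a.

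The all-gene median of this comparison was −0.92, and scaling each library over the maternal genes raised it to 0.31, a shift of 1.23. With that scaling 8 members rose and 1 fell, where 41.3% of all genes rose and 24.0% fell. smarca2 remained lower (−1.74, limma adjusted p = 0.0444), smarcb1a no longer passed (−0.24, limma adjusted p = 0.45), and arid1ab, at −0.07 unscaled, was at 1.17. In the other comparisons the same scaling moved the all-gene median by −1.01 to 0.72.

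In wild-type poly(A) libraries 3 members fell and none rose, where 20.3% of the 15932 genes tested fell and 30.1% rose (50.4% in either direction). The log2 change was −3.87 ± 1.03 for smarca2 (SE, limma adjusted p = 0.00933) and −1.51 ± 0.35 for arid1ab (SE, limma adjusted p = 0.0043), and both passed in all 14 alternatives. For smarcd1, a subunit that links the complex to transcription factors, it was −0.96 (limma adjusted p = 0.0421), and that call held in 5 of 14 alternatives. Without 3 hpf 5 members fell, smarcb1a and smarcc1a being added, where 17.3% of all genes tested fell and 33.9% rose.

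Poly(A) capture of the members was measured as the ratio of poly(A) to Ribo-Zero TPM of the same hour, which is higher for RNAs that oligo(dT) captures better than the average RNA. At 0 to 2 hpf the ratio passed the test above 1 for 7 members and below 1 for none, where 12.7% of the 15982 genes tested passed above and 45.2% below (57.9% in either direction). With scaling 9 members passed above and none below, against 24.4% and 28.0% of all genes. The highest were smarcc1a (2.52 ± 0.27 log2, SE, limma adjusted p = 1.51e-05), smarcd1 (2.12 ± 0.22, SE, limma adjusted p = 1.15e-05) and smarce1 (1.94 ± 0.20, SE, limma adjusted p = 9.73e-06), against a median of −0.82 over all genes. In TPM, smarcc1a was 412, 469.6 and 295.5 at 0, 1 and 2 hpf in poly(A) libraries and 77.2, 53.9 and 71.8 in Ribo-Zero libraries. The log2 ratios of smarca2 (−0.92), arid2 (0.79) and smarca5 (0.53) did not pass. Without 2 hpf smarca2 passed below 1 (−1.35, limma adjusted p = 0.0491), where 54.7% of all genes tested passed below. The all-gene median was then −1.23, so smarca2 lay near it. Without 0 hpf arid2 (1.58) and smarca5 (0.75) passed above 1, where 13.7% of all genes tested passed above, and smarcb1a (0.90, limma adjusted p = 0.0705) was lost. Without 1 hpf 5 members passed above 1, where 9.3% of all genes tested passed above. The calls of smarcb1a (limma adjusted p = 0.0507) and arid1ab (limma adjusted p = 0.0651) were then lost.

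At 3 to 8 hpf the ratio passed above 1 for 6 members and below 1 for smarca2, where 28.8% of genes tested passed above and 7.78% below (36.6% in either direction). smarca2 was at −1.03 ± 0.34 log2 (SE, limma adjusted p = 0.0292) over the hours in which its level dropped, but this call was lost with a pseudocount of 1 (−0.66, limma adjusted p = 0.056), with no filter and without 5, 6, 7 or 8 hpf. The hourly differences of smarca2 were 0.05 and 0.11 at 3 and 4 hpf and −0.58, −2.16, −2.01 and −1.63 at 5 to 8 hpf, so that after 4 hpf the poly(A) level was the lower at each hour. With scaling over maternal genes 3 members passed above and 1 below, where 18.9% of genes tested passed above and 15.9% below.

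From the early to the late window the ratio fell for 3 members, smarcc1a (−1.51 ± 0.33, SE, limma adjusted p = 0.00309), smarcd1 (−1.30 ± 0.27, SE, limma adjusted p = 0.00231) and arid1ab (−1.09 ± 0.40, SE, limma adjusted p = 0.0376), and rose for none, where 4.97% of genes tested fell and 44.8% rose (49.8% in either direction). With scaling over maternal genes 7 members fell, where 19.2% of genes tested fell and 18.3% rose. The calls of smarcc1a and smarcd1 held in all 13 alternatives and that of arid1ab in 6.

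Other BAF, PBAF and non-canonical BAF subunits were found in 25 rows. Of 24 tested in Ribo-Zero RNA, 4 rose and 11 fell between the early and the late hours, where 22.1% of all genes tested rose and 57.2% fell. The median change of these subunits was −0.31, against −0.92 over all genes. The largest falls were pbrm1, the PBAF bromodomain subunit (−2.77), and smarcc2, a scaffold subunit (−2.71), each at low levels. In Ribo-Zero libraries pbrm1 was 4.84 to 6.52 TPM at 0 to 3 hpf and 0.38 to 3.19 TPM at 5 to 8 hpf. For smarcc2 these ranges were 4.32 to 4.78 TPM and 0.28 to 1.3 TPM. In alpha-amanitin poly(A) libraries pbrm1 was 5.89, 8.29, 9.7 and 10.2 TPM at 4, 5, 6 and 7 hpf, against 4.72, 1.84, 0.66 and 0.34 TPM in wild-type poly(A) libraries, and its slope difference between treatments was 0.99 (limma adjusted p = 0.00223). Because pbrm1 was named for its fall in wild-type embryos, this difference is not a separate test. Its late against early change in wild-type poly(A) RNA, −1.26, did not pass (limma adjusted p = 0.189). The largest rises were bicral (4.34) and smarcd3b, a variant known from heart development in mouse (2.38). In Ribo-Zero libraries bicral was 0.08 to 0.13 TPM at 0 to 3 hpf, about the size of the pseudocount of 0.1. At 5 to 8 hpf it was 1.33 to 9.71 TPM. smarcd3b was 4.33, 4.6, 3.37 and 4.91 TPM at 4, 5, 6 and 7 hpf in alpha-amanitin embryos and 5.88, 14.4, 35.2 and 46.5 TPM in wild-type poly(A) libraries. The slope difference between treatments was higher for 5 and lower for 8 of 23 tested, where 29.4% of all genes were higher and 23.1% lower.

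Across all 30 libraries and 15775 genes, the profiles most like that of smarca2 by Pearson correlation of log2(TPM + 0.1) were rabgap1l (0.989), fam65b (0.985), hdac4 (0.985), adcy5 (0.984) and ankha (0.984). The points share libraries and their composition, and many hours lie on 1 common decline, so the coefficients are a description only. Among the members the closest was arid1ab (0.649, rank 5397) and the least alike smarca4a (−0.265, rank 11624). rabgap1l was 98.4 TPM in alpha-amanitin embryos at 7 hpf, against 3.3 TPM in wild-type poly(A) and 7.9 TPM in wild-type Ribo-Zero libraries.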

How the data were processed

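The deposited tables hold TPM values, which the authors made with STAR 2.7.3a and RSEM on danRer11 (bcl2fastq 2.18 before them, per the submitters' processing notes), written to 2 decimals and summing to 999999 to 1000001 per library. TPM keeps no read depth, so no counting interval is given, and a higher share for some RNAs lowers that of the others. Genes with a mean of at least 1 TPM in the libraries of a fit were tested on log2(TPM + 0.1) by limma (version 3.58.1, R 4.3.3) with variances moderated along the mean level (two-sided, Benjamini-Hochberg over all genes tested, threshold 0.05). Fold changes on this scale understate those of low genes. The smarca2 to smarca4a ratio was tested by exact permutation. Alternatives were pseudocounts of 1 and 0.01, no filter, scaling over maternal genes, other windows and leaving out each hour in both arms. The fits were run on simulated data with independent noise of equal spread for all genes and hours. Correlation between hours and trends within a window were not simulated, so these runs give no error rates for the real data. Members and gene lists were chosen with earlier results of these data known. Named genes were the members, the 5 profiles most like smarca2, the zygotic check genes, and the 2 largest rises and 2 largest falls past the threshold in each list of other remodeler genes. Sequences and coordinates were not used here.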

Additional observations from a re-analysis of the deposited data

Results flagged for a closer look

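For 5 members the change with time differed between alpha-amanitin and wild-type embryos by a test of the difference itself (limma, slope of log2(TPM + 0.1) per hour, poly(A) libraries at 2 to 7 hpf). The difference was 1.61 for smarca2, 0.69 for arid1ab, 0.53 for arid2, 0.22 for smarcd1 and −0.74 for smarcb1a. That of smarcd1 was lost without any 1 of the 6 hours, passed in 2 of 11 alternatives and was −0.03 with scaling over maternal genes. In the all-gene fit 52.5% of genes tested differed in either direction.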

How the results depend on the processing

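Each comparison rests on 1 library per hour, which limits all p-values to the spread between hours. Of 1100 member values recomputed under the alternatives, 940 kept direction and side of the threshold, 90 lost a call, 22 gained one and 48 changed sign, 41 of these with no call in either setting. The causes of these changes were not tested. Shorter stretches also hold fewer libraries. The count of members called in the alpha-amanitin slope was 1 within 2 to 4.5 hpf and 1 within 5 to 7.5 hpf, where calls over all genes in either direction also became fewer. At 4 to 7 hpf it was 1 with no filter and 1 with scaling. With no filter 3130 of the 28449 genes tested were higher and 5136 lower. The count was 0 with the hour as a factor, where 3.94% of all genes were higher and 13.1% lower. Leaving out 1 hour it was 0 to 4, the share of all genes higher then being 0.549% to 35.2% and lower 7.55% to 28.2%. At 2 to 3 hpf it was 0 with no filter, with scaling and without the covariate, and leaving out an hour was not run. Over all genes, 0.00435% were then higher and 0.0827% lower with no filter, and 0.0% were called without the covariate. Ribo-Zero late against early gave 9 with scaling and 1 with an early window of 2 to 3 hpf, where 18.4% of all genes rose and 36.8% fell. Poly(A) late against early gave 2 to 5 leaving out 1 hour, with 13.5% to 27.6% of all genes falling. The poly(A) to Ribo-Zero ratio gave 4 at 3 to 8 hpf and 7 for its change with scaling. The smarca2 to smarca4a difference ran from −5.21 to −3.45 in wild-type poly(A) and from −4.55 to −2.91 in Ribo-Zero leaving out 1 hour, and in Ribo-Zero the exact permutation p was 0.0571 without any early hour.

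Signs changed as follows. Slopes within 2 to 4.5 hpf were −0.03 for smarca5, −0.02 for smarcc1a, −0.04 for smarcd1, −0.07 for smarca4a and −0.14 for smarce1, and within 5 to 7.5 hpf −0.06 for arid2. With scaling, the difference at 4 to 7 hpf was −0.55 for smarca4a, −0.30 for smarca5, −0.58 for smarcb1b, −0.53 for smarcc1a, −0.35 for smarcd1 and −0.63 for smarce1, and the slope difference −0.03 for smarcd1, −0.23 for smarca4a, −0.08 for smarca5 and −0.05 for smarcc1a. Late against early with scaling was 1.17 for arid1ab in Ribo-Zero and 0.11 for smarca5 in poly(A), and arid2 in poly(A) was −0.19 with a late window of 6 to 8 hpf and −1.10 with an early window of 2 to 3 hpf. With scaling the poly(A) to Ribo-Zero ratio at 3 to 8 hpf was −0.10 for smarca5 and −0.22 for arid1ab, and its change −0.89 for smarcb1b and −0.46 for arid2, while a pseudocount of 1 gave 0.23 for smarca2. Leaving out 1 hour, smarce1 ran from −0.10 to 0.06 at 4 to 7 hpf and smarca4a from −0.01 to 0.04 in the slope difference. Ribo-Zero late against early ran from −0.03 to 0.09 for smarca5, −0.21 to 0.07 for arid1ab and −0.05 to 0.27 for arid2, and poly(A) from −0.08 to 0.22 for smarce1 and −0.50 to 0.51 for arid2. The ratio ran from −0.08 to 0.29 for arid1ab at 3 to 8 hpf, and its change from −0.49 to 0.31 for smarca2, −0.55 to 0.13 for smarcb1a, −0.01 to 0.45 for smarcb1b and −0.09 to 1.35 for arid2. The fit with the hour as a factor pairs the libraries by hour.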

Other observations

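Among 36 rows of other chromatin remodelers, 3 rose and 15 fell of 34 tested in wild-type Ribo-Zero RNA from early to late hours, where 22.1% of all genes tested rose and 57.2% fell, with a median of −0.42 against −0.92 over all genes. The largest falls were hells, a SNF2-family helicase (−2.58), and rsf1a, whose human counterpart partners the SMARCA5 ATPase (−2.31). The largest rises were chd4b, an ATPase of the NuRD complex (1.11), and atrx (0.94). Because rsf1a and hells were named for their fall in wild-type embryos, their slope differences between treatments are not separate tests. rsf1a was 66.6 TPM at 7 hpf in alpha-amanitin embryos and 2.9 TPM in wild-type poly(A) libraries, with a slope difference between treatments of 1.16 (limma adjusted p = 0.000457). hells was 18.1 TPM at 7 hpf in alpha-amanitin embryos and 35.4 TPM in wild-type poly(A) libraries, and its slope difference of −0.24 did not pass (limma adjusted p = 0.161).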
